A study of Mus musculus with 8 samples.

Results

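The genes described here carry out DNA replication and the passage from G1 into S phase. They are 47 genes out of 21612 that could be named on the array, listed by symbol for their known roles and not by their measured values, and every probe other than a control probe whose accession mapped to one of them was used, 55 probes in all. Their mRNA was measured in AML12, an established hepatocyte line derived from a mouse transgenic for human TGF-α, on 8 one-color arrays with 1 sample each. The 4 control samples were cultured for 24 h without irisin and the 4 irisin samples for 24 h with 0.5 µg/ml irisin, the peptide cleaved from Fndc5, all in the same serum-containing medium. The study reported more of these cells after irisin treatment, from a cell viability assay. That assay was run at higher concentrations and after a longer time than these arrays. The comparison made here asks whether the mRNA of the replication machinery differed after irisin treatment at the dose and time of the arrays. The labels do not say that the samples of a group came from separate cultures, so the p-values measure the spread between these samples, which may be technical.

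DNA replication starts when the origin recognition complex, Cdc6 and Cdt1 load the Mcm2-7 helicase onto DNA during G1. In S phase the kinases Cdc7 and Cdk2 trigger the joining of Cdc45 and the GINS complex to the helicase, after which primase and the DNA polymerases copy both strands. Transcription of many of these genes is held back by Rb1 bound to E2F factors, and cyclin D with Cdk4 or Cdk6 and then cyclin E with Cdk2 relieve that block by phosphorylating Rb1. Resting hepatocytes in the liver are largely outside the cell cycle, whereas hepatocyte lines divide in culture.

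Signal differed between the arrays before any scaling. The 75th percentile of the probe signal was 472 ± 70.1 in the controls and 783 ± 71.6 in the irisin arrays (SD, n = 4 in each group), and its log2 differed by 0.74 (p = 0.0286 by exact permutation, two-sided, which is the lowest value possible with 4 arrays a group). All control arrays lay on one slide and all irisin arrays on another slide scanned separately, so treatment cannot be told apart from slide and scan. All levels below are given as log2 signal minus the log2 of the 75th percentile of the array, a scale on which 0 is the 75th percentile of that array. This scaling removes the difference in the 75th percentile but does not separate treatment from slide and scan. All 12 hepatocyte markers examined, among them Alb and Hnf4a, passed the background test on all 8 arrays. Of 6 markers each, 5 stellate or fibroblast, 3 endothelial and 1 macrophage markers were well above background on no array, whereas all 6 cholangiocyte markers were detected on at least 1 array. Well above background on all 8 arrays were 1 stellate or fibroblast, 2 endothelial, 2 macrophage and 4 cholangiocyte markers. RNA of whole cultures was measured, so a different share of dividing cells and a different mRNA amount per cell cannot be told apart.

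All 47 genes were detected and tested, and 46 of them had signal well above background on every array. The exception was Mcm4, whose spot on irisin replicate 3 was marked as an outlier and left out, so that its values rest on 7 arrays. No replication or S-phase gene passed both thresholds of the comparison, 1.5-fold in size and a limma p-value under 0.05 after Benjamini-Hochberg adjustment over all tested probes. Among all 14311 tested genes 10.7% passed both, 0.531% with higher and 10.2% with lower signal after irisin treatment. At the adjusted p alone 3 of the 47 genes passed, 1 higher (Orc1) and 2 lower (Cdc45 and Prim2), beside 20.6% of all tested genes, 2.65% higher and 17.9% lower. At an unadjusted limma p under 0.05 there were 11 of the 47 genes, 3 higher and 8 lower, beside 29.5% of all tested genes.

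The log2 changes of the 47 genes ranged from -0.63 (Ccne2) to 0.43 (Pola1). Of these changes 13 were above and 34 below 0 on this scale, whereas 28 were above 0 with cyclic loess and all 47 with no scaling. Their median was -0.06, and that of all tested genes was also -0.06, with 5152 genes above and 9159 below 0. For 42 of the 47 genes (89.4%) the 95% interval of the change lay wholly within 1.5-fold in either direction, as it did for 75.2% of all tested genes. The 5 genes whose interval reached beyond 1.5-fold were Pola1, Prim2, Ccnd3, Ccne2 and Cdk6, and the interval of Pola1 and of Cdk6 also held 0. The values of the groups did not overlap for 7 of the 47 genes (14.9%), beside 23.9% of all tested genes.

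**Figure D1:**
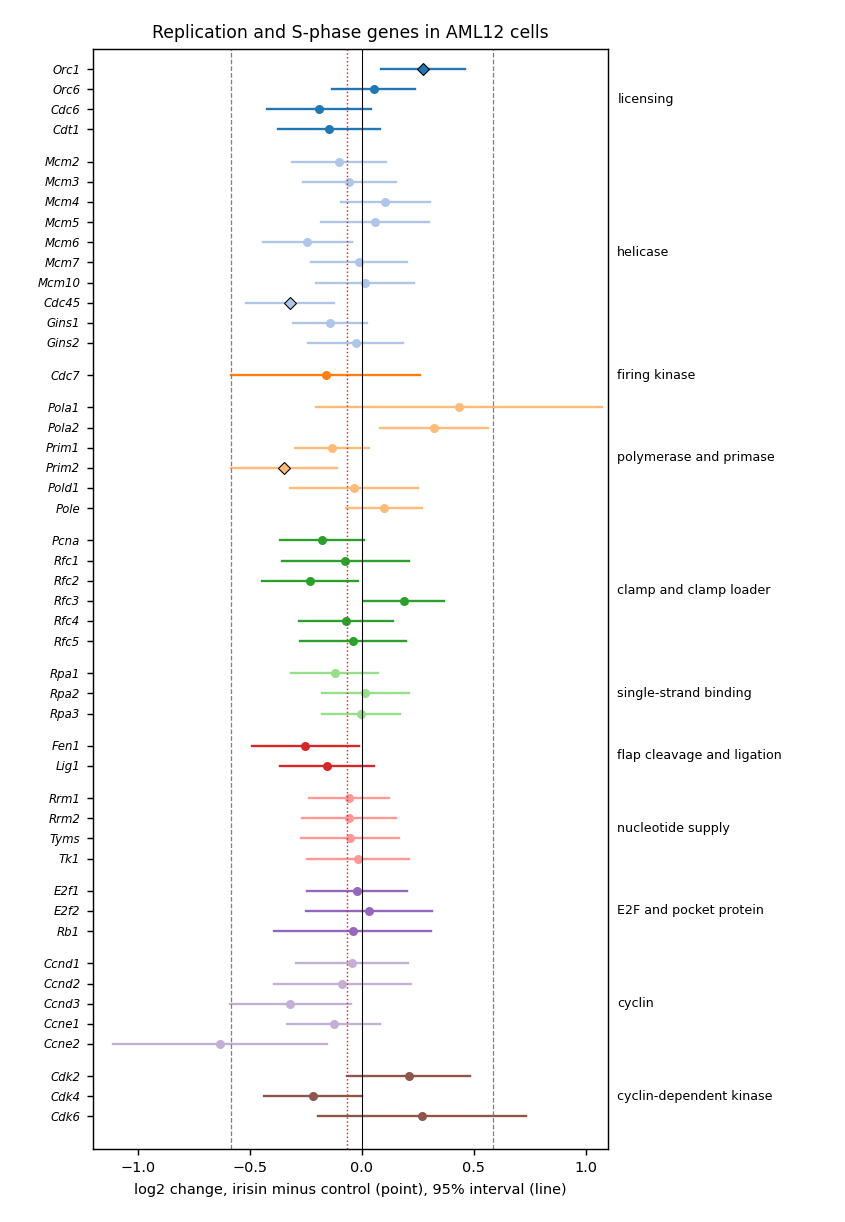
Log2 change after irisin treatment of the 47 genes, grouped by role, with points for the limma estimate (4 control and 4 irisin arrays, 3 irisin arrays for Mcm4) and lines for its 95% interval. Diamonds mark the 3 genes with an adjusted p under 0.05, dashed lines a 1.5-fold change in either direction and the dotted line the median of all tested genes (-0.06). Of the 47 points, only that of Ccne2 lies past a dashed line.

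The replication genes gave brighter signal than most genes, and the share of called genes differed with signal. The median of their mean signal was 4641 on the linear scale against 557 for all tested genes, and 38 of the 47 lay above the median signal of the tested genes. Among the 7155 tested genes of that brighter class 0.657% passed both thresholds and 8.09% passed the adjusted p, whereas 0 of the 38 replication genes passed either. The 95% interval lay within 1.5-fold for 36 of these 38 genes, beside 92.6% of the brighter class, and the groups did not overlap for 4 of the 38, beside 13.6%. In the 3 dimmest deciles 32.3% of the tested genes passed both thresholds, 45.7% passed the adjusted p, 45.2% had no overlap between the groups and 43.4% had an interval within 1.5-fold. Of the replication genes only Ccne2, Cdc7, Cdc45 and Cdk6 lay in those deciles, of which Cdc45 passed the adjusted p and had no overlap and 2 had an interval within 1.5-fold. Orc1, Cdc45 and Prim2 all lay below the median signal of the tested genes.

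**Figure D2:**
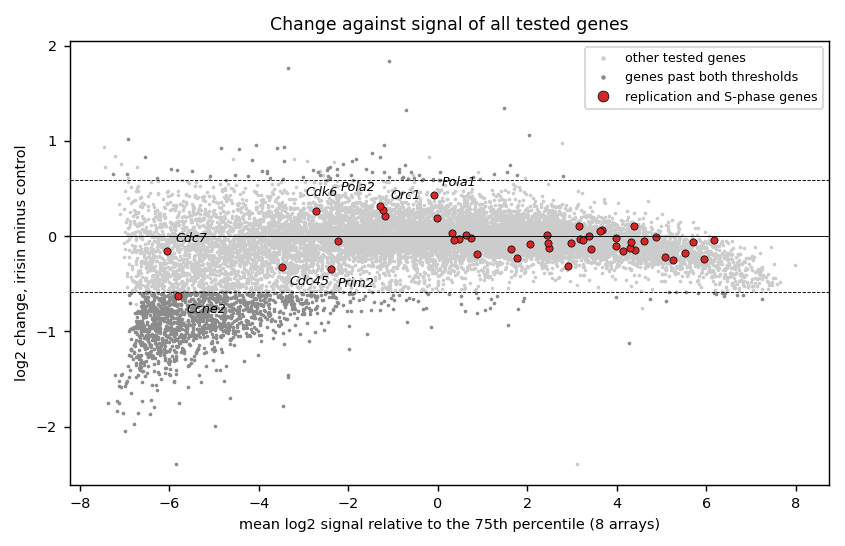
Log2 change after irisin treatment (vertical axis) against the mean log2 signal relative to the 75th percentile over 8 arrays (horizontal axis) for 14311 tested genes, 1 point each. Light grey points are other tested genes, dark grey points the 1536 genes past both thresholds and red points the 47 replication and S-phase genes. Most dark points are dim and lower after irisin treatment, while 38 red points lie above the median signal.

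Among the licensing genes, Orc1, the largest subunit of the origin recognition complex, was higher on every irisin array. Its log2 signal was -1.32, -1.28, -1.30 and -1.53 on control replicates 1 to 4 and -1.02, -1.16, -1.07 and -1.09 on irisin replicates 1 to 4. The lowest irisin array lay above the highest control array, and control replicate 4 lay below the other controls. The log2 change was 0.27 (standard error 0.08, 95% interval 0.09 to 0.46, limma adjusted p = 0.038), which is under 1.5-fold. Leaving out any array other than irisin replicate 2 raised the adjusted p above 0.05, to at most 0.112 without control replicate 4. Orc6 (0.05), Cdc6 (-0.19) and Cdt1 (-0.15), which completes helicase loading together with Cdc6, overlapped between the groups.

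The 10 helicase genes include the 6 subunits of the Mcm2-7 ring measured here and the factors that activate it. Of their log2 changes 3 were above and 7 below 0, between -0.32 and 0.11, and with loess or quantile normalization 6 were above and 4 below 0. Cdc45, the activating partner of the ring, had log2 signals of -3.30, -3.19, -3.36 and -3.42 on the controls and -3.51, -3.63, -3.76 and -3.65 on the irisin arrays. All irisin arrays were below all control arrays. Its log2 change was -0.32 (standard error 0.09, 95% interval -0.52 to -0.12, limma adjusted p = 0.0216). The adjusted p rose to 0.054 without control replicate 1, 0.0701 without control replicate 2, 0.0652 without irisin replicate 3 and 0.0612 without irisin replicate 4, and was under 0.05 without each of the other arrays. With cyclic loess the Cdc45 change was -0.15 (adjusted p = 0.221) and with quantile normalization -0.19 (adjusted p = 0.142).

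Mcm2, a ring subunit widely used to mark cycling cells, read 4.15, 4.06, 4.04 and 3.89 on the controls and 3.94, 4.10, 3.79 and 3.91 on the irisin arrays. The groups overlapped, and the Mcm2 log2 change was -0.10 (95% interval -0.31 to 0.11, limma adjusted p = 0.513). Mcm6, named after its values were seen because its groups did not overlap, read 5.99 to 6.19 on the controls and 5.69 to 5.97 on the irisin arrays. Its log2 change was -0.24 (limma adjusted p = 0.0751), and with quantile normalization it was 0.02. Gins1 was the other helicase gene without overlap, with a change of -0.14 (limma adjusted p = 0.219), while Gins2 of the same complex had -0.03 and overlapped. The remaining ring subunits Mcm3 (-0.06), Mcm4 (0.11), Mcm5 (0.06) and Mcm7 (-0.01) and the helicase factor Mcm10 (0.01) all overlapped between the groups. The kinase Cdc7, dim on all arrays, had log2 signals of -6.59 to -5.54 on the controls and -6.29 to -6.02 on the irisin arrays, and its change was -0.16 (95% interval -0.58 to 0.26, limma adjusted p = 0.618). The Cdc7 change was 0.32 with cyclic loess and -0.60 with normexp background correction, where it passed both thresholds.

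A feature that several of these genes share and that played no part in choosing them is an E2F motif near the start of transcription. RefSeq promoter windows on GRCm38.p6, 250 bases before to 50 bases after each start, were at hand for 37 of the 47 genes, 44 windows in all, and were searched on both strands for TTTCCCGC, TTTCGCGC, TTTGCCGC and TTTGGCGC. At least 1 match was found in 13 of the 44 windows (29.5%) and in 744 of all 32851 windows of the same length (2.26%). A match is a match of letters and was not shown here to be bound by a factor. A window covers a single annotated start, which need not be the main start of the gene. A gene without a match may therefore have one outside its windows. The 250 bases before the start are printed for 4 licensing and helicase genes to show where the matches lie, with the matched letters in capitals and the rest in lower case, 5′ to 3′ on the strand of the gene. They are Orc1 (chr4:108579204-108579453, plus strand), with a match starting 27 bases before the start of transcription; Cdc6 (chr11:98907901-98908150, plus strand), with a match 138 bases before it; Mcm5 (chr8:75109259-75109508, plus strand), with matches 153 and 149 bases before it; and Mcm6 (chr1:128359706-128359955, minus strand), with matches 110, 106 and 47 bases before it. The first 2 matches of Mcm5 and of Mcm6 overlap each other and read as 1 run.
Orc1: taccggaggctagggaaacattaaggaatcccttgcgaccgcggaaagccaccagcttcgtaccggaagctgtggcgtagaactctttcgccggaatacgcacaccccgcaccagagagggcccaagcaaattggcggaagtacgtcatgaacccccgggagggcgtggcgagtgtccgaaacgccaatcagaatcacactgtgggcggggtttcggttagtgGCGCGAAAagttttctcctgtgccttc
Cdc6: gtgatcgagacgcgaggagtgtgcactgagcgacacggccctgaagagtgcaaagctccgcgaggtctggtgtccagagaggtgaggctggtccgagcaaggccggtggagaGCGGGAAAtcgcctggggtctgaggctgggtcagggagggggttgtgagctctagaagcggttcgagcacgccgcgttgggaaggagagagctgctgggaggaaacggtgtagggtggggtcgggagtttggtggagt
Mcm5: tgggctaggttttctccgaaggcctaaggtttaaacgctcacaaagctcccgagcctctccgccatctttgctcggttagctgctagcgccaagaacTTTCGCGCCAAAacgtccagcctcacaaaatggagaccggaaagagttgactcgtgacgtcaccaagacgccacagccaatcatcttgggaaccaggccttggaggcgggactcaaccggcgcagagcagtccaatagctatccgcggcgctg
Mcm6: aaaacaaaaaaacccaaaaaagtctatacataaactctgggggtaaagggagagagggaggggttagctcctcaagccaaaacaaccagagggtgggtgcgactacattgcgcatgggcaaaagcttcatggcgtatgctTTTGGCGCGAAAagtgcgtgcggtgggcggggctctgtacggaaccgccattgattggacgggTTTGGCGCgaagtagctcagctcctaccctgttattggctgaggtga

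The 13 genes with a match were Cdc6, Cdk2, Cdt1, E2f2, Lig1, Mcm3, Mcm5, Mcm6, Mcm7, Orc1, Pola1, Pold1 and Rfc3. Their log2 changes ran from -0.24 (Mcm6) to 0.43 (Pola1) with a median of -0.01, 6 above and 7 below 0. The 24 genes with a window and no match ran from -0.32 to 0.32 with a median of -0.06, 5 above and 19 below 0, and the other 10 genes had no window in the table. Each of these groups held 1 gene past the adjusted p, which were Orc1, Cdc45 and Prim2 in that order. The GGGCGG letters bound by Sp1 were in 72.7% of the windows of the replication genes and 35.7% of all windows, and CCAAT was in 54.5% and 37.4%.

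Among the polymerase and primase genes, subunits of the polymerase α-primase complex, which lays down the first primer and DNA stretch of each fragment, lay on both sides of 0 on this scale, while all 6 genes of the group were above 0 when scaled to the spike-in controls or left unscaled. Prim2, its large primase subunit, had log2 signals of -2.39, -2.21, -2.14 and -2.14 on the controls and -2.72, -2.69, -2.34 and -2.53 on the irisin arrays. Irisin replicate 3 lay above control replicate 1, and the other irisin arrays lay below all controls. The Prim2 log2 change was -0.35 (standard error 0.11, 95% interval -0.59 to -0.11, limma adjusted p = 0.0357). Its adjusted p rose above 0.05 without any one array other than control replicate 1 or irisin replicate 3, to at most 0.0954, and its exact two-sided permutation p was 0.0571. With cyclic loess the Prim2 change was -0.27 (adjusted p = 0.099) and with quantile normalization -0.31 (adjusted p = 0.0612). The small primase subunit Prim1 had a change of -0.13 (limma adjusted p = 0.249) and the groups did not overlap.

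Pola1, the catalytic subunit, varied most between arrays of all 47 genes. It read -0.17, 0.09, -0.63 and -0.49 on the controls and 0.07, -0.29, 1.08 and -0.34 on the irisin arrays. Irisin replicate 3 stood far above every other array, and the remaining irisin arrays lay within the range of the controls. The Pola1 log2 change of 0.43 (95% interval -0.21 to 1.07, limma adjusted p = 0.338) was 0.12 without irisin replicate 3. Pola2, the accessory subunit, read -1.75 to -1.33 on the controls and -1.23 to -1.05 on the irisin arrays, without overlap, and its change was 0.32 (limma adjusted p = 0.0537, and 0.0488 with cyclic loess). The catalytic subunits of the replicative polymerases, Pold1 (-0.03) and Pole (0.10), overlapped between the groups.

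The sliding clamp and the complex that loads it gave no gene past the adjusted p. Pcna, the clamp that holds polymerases on DNA and a common proliferation marker, read 5.70, 5.60, 5.59 and 5.59 on the controls and 5.34, 5.61, 5.43 and 5.39 on the irisin arrays. Irisin replicate 2 lay within the control range and the other irisin arrays lay below it. The Pcna log2 change was -0.18 (95% interval -0.37 to 0.01, limma adjusted p = 0.171), was -0.24 with an adjusted p of 0.035 without irisin replicate 2, and was 0.00 with cyclic loess. Among the loader subunits the size of the change was largest for Rfc2, at -0.23 (95% interval -0.45 to -0.02, limma adjusted p = 0.116). Rfc3 was the loader subunit without overlap, with a change of 0.19 in the other direction (limma adjusted p = 0.125), and Rfc1 (-0.07), Rfc4 (-0.07) and Rfc5 (-0.04) overlapped.

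No gene of single-strand binding or of fragment joining passed the adjusted p. The single-strand binding subunits Rpa1 (-0.12, limma adjusted p = 0.379), Rpa2 (0.01) and Rpa3 (-0.00) all overlapped between the groups. Fen1, the nuclease that removes the flap between fragments, read 5.31 to 5.41 on the controls and 4.95, 5.41, 4.98 and 5.15 on the irisin arrays. Irisin replicate 2 again lay among the controls, with the other irisin arrays below them. The Fen1 log2 change was -0.25 (95% interval -0.49 to -0.01, limma adjusted p = 0.123), and -0.35 with an adjusted p of 0.0103 without irisin replicate 2. With cyclic loess the Fen1 change was -0.09 (adjusted p = 0.448) and with quantile normalization -0.05 (adjusted p = 0.702). Lig1, the ligase that seals the fragments, had a change of -0.16 (limma adjusted p = 0.289).

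The 4 nucleotide supply genes had changes between -0.06 and -0.02, which were all above 0 with loess, spike-in or no scaling. Rrm2, the subunit of ribonucleotide reductase made in S phase, read 5.78, 5.70, 5.70 and 5.75 on the controls and 5.50, 5.87, 5.58 and 5.74 on the irisin arrays. The irisin values spread on both sides of the controls, and the Rrm2 log2 change was -0.06 (95% interval -0.27 to 0.15, limma adjusted p = 0.731). Its partner Rrm1 also had -0.06 (95% interval -0.24 to 0.12, limma adjusted p = 0.671), and Tyms and Tk1, which make thymidine nucleotides, had -0.05 and -0.02.

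**Figure D3:**
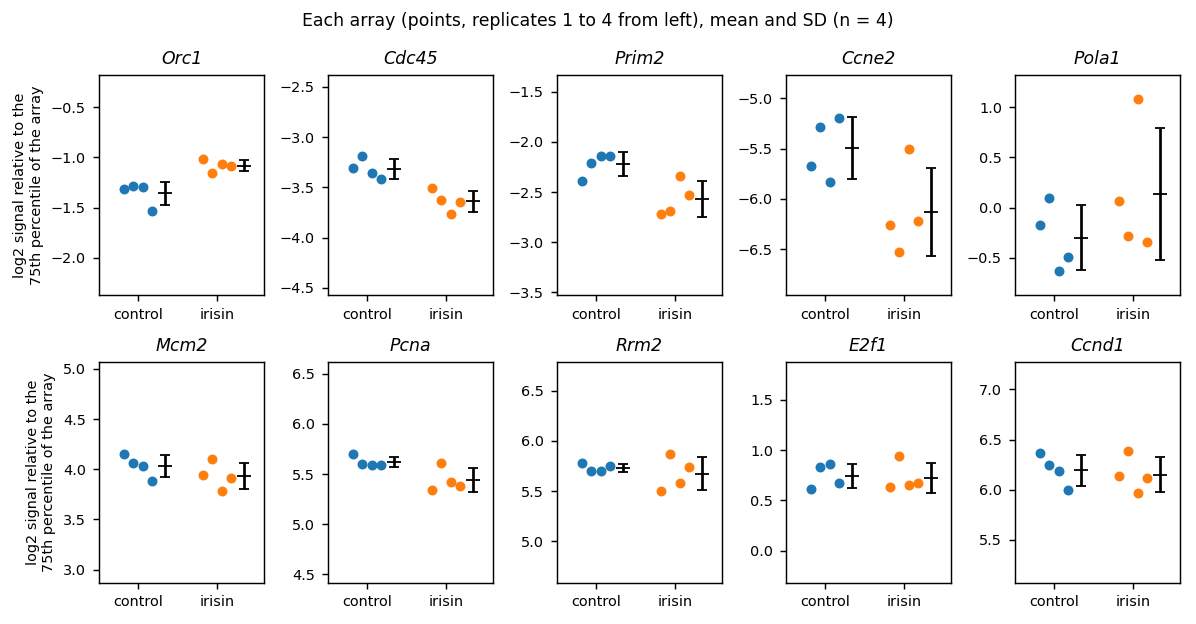
Log2 signal, set against the 75th percentile of its array, for 10 of the genes on each of 8 arrays, with points for the replicates and a bar for the mean and SD of each group (n = 4). Every panel spans the same number of log2 units around the middle of its own gene, so that differences compare between genes but levels do not. Orc1 and Cdc45 show no overlap, Ccne2 and Pola1 show the widest scatter, and the irisin points of Mcm2, Pcna, Rrm2, E2f1 and Ccnd1 overlap the controls.

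None of the E2F and pocket protein genes passed the adjusted p. E2f1, an activating E2F factor and itself an E2F target, read 0.62, 0.84, 0.86 and 0.67 on the controls and 0.63, 0.94, 0.65 and 0.67 on the irisin arrays. Irisin replicate 2 was the highest of all arrays and the other irisin arrays lay within the control range, and the E2f1 log2 change was -0.02 (95% interval -0.24 to 0.20, limma adjusted p = 0.916). E2f2 had 0.03. Rb1, the pocket protein that holds E2F factors in check, had a change of -0.04 (95% interval -0.39 to 0.31, limma adjusted p = 0.894), and its value on irisin replicate 2, -0.20, was the lowest of all arrays. Without that array the Rb1 change was 0.13 (limma adjusted p = 0.277).

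All 5 cyclin genes had changes below 0 on this scale, with 1 above 0 under loess, quantile normalization or normexp. With spike-in scaling 4 were above and 1 below 0, and with no scaling all were above 0. Ccne2, a cyclin E that activates Cdk2, had the largest change of the 47 genes, with log2 signals of -5.67, -5.28, -5.83 and -5.19 on the controls and -6.26, -6.53, -5.51 and -6.22 on the irisin arrays. Irisin replicate 3 lay among the controls and the other irisin arrays lay below them. The Ccne2 log2 change was -0.63 (standard error 0.21, 95% interval -1.11 to -0.16, limma adjusted p = 0.0555), larger than 1.5-fold but not past the adjusted p. Its linear signal averaged 10.7 in the controls and 11.7 in the irisin arrays, and the Ccne2 change was -0.18 with cyclic loess and -0.19 with quantile normalization. Ccne2 passed both thresholds with normexp correction (-0.59), with scaling to the median of detected probes (-0.65), without irisin replicate 3 (-0.84, adjusted p = 0.00593) and without control replicate 3 (-0.75, adjusted p = 0.0408).

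Ccnd1, the cyclin D that links growth signals to the cell cycle, read 6.37, 6.24, 6.18 and 5.99 on the controls and 6.14, 6.38, 5.97 and 6.12 on the irisin arrays. The groups overlapped over nearly their whole range, and the Ccnd1 log2 change was -0.04 (95% interval -0.29 to 0.20, limma adjusted p = 0.834). Ccne1, the other cyclin E, had -0.13 (95% interval -0.33 to 0.08, limma adjusted p = 0.393). Ccnd2 had -0.09 and Ccnd3 -0.32 (limma adjusted p = 0.0863). Of the kinases, Cdk6 had the largest change, 0.27 (95% interval -0.20 to 0.73, limma adjusted p = 0.423), which was -0.09 with normexp background correction, while Cdk2 had 0.21 (limma adjusted p = 0.277) and Cdk4 -0.22 (limma adjusted p = 0.144).

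Of the 47 genes 40 were measured by 1 probe and 7 by several, and no second probe passed both thresholds. The other probe of Cdc6 had a log2 change of -0.11 and that of Ccnd3 -0.26, both in the direction of the brighter probe. The 3 probes of Cdk4 had changes of -0.22, -0.19 and -0.16, which agree in direction. The probes of Ccne1 differed, with -0.13 for the brighter and 0.12 for the dimmer, as did those of Rfc4 (-0.07 and 0.11) and Pole (0.10 and -0.26), and none of these differed from 0 past the adjusted p.

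Arrays of a group did not place all genes alike. On irisin replicate 2, 37 of the 47 genes lay above the mean of the irisin group, with a median deviation of 0.14 on the log2 scale beside 0.09 for all tested genes. With cyclic loess that deviation of the replication genes was 0.02. On irisin replicate 3, 36 genes lay below the group mean, and on control replicate 4, 34 did. Without irisin replicate 2, 9 of the 47 genes passed the adjusted p in limma in place of 3, namely Cdt1, Mcm6, Cdc45, Pcna, Rfc2, Fen1, Lig1 and Cdk4 on the lower side and Orc1 on the higher, and none passed 1.5-fold as well. In that fit 27.4% of all tested genes passed the adjusted p, a larger share than that of the 47 genes.

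The wider set of 68 further genes of origin licensing, the replication fork, nucleotide and histone supply, E2F control and CDK inhibition was tested in the same fit. None passed both thresholds with higher and 1 with lower signal, beside 0.531% and 10.2% of all tested genes. That gene was Chtf8, a subunit of an alternative clamp loader, at 5.56, 5.43, 5.37 and 5.37 on the controls and 5.12, 4.70, 4.15 and 5.05 on the irisin arrays. All irisin arrays were below the controls, irisin replicate 3 most, and the Chtf8 log2 change was -0.68 (standard error 0.19, 95% interval -1.09 to -0.27, limma adjusted p = 0.0205). Chtf8 was not called with cyclic loess, quantile normalization, scaling to the spike-in controls, unscaled arrays or the test named in the study's methods, and not without control replicate 1 or irisin replicate 3. At the adjusted p alone 6 genes were higher and 3 lower, beside 2.65% and 17.9% of all tested genes. The higher ones, named after their values were seen, were the origin subunit Orc4 (0.58), the histone mRNA binding protein Slbp (0.54), the polymerase subunit Pole2 (0.38), the nuclease Dna2 (0.37), the E2F partner Tfdp1 (0.34) and the pocket protein Rbl2 (0.32), and the third gene lower beside Chtf8 and Cdkn1b was the repressor E2f4 (-0.52). The CDK inhibitor Cdkn1b (p27) had a log2 change of -0.33 (95% interval -0.52 to -0.14, limma adjusted p = 0.0145), and Cdkn1a (p21) had -0.09 (95% interval -0.33 to 0.15, limma adjusted p = 0.635). The median log2 change of the 68 genes was -0.02.

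The sign of many of these changes depended on the scaling between arrays. With cyclic loess 28 of the 47 genes had changes above and 19 below 0, and with quantile normalization 25 and 22. With scaling to the spike-in controls 46 were above and 1 below 0, and with no scaling all 47 were above 0. The median change of the replication genes stayed next to that of all tested genes in each case, at 0.02 and 0.02 with loess, 0.01 and 0.01 with quantile normalization, 0.52 and 0.51 when scaled to the spike-in controls, and 0.68 and 0.67 on the unscaled arrays. Normexp background correction gave -0.01 for the replication genes and -0.11 for all tested genes. Among all tested genes the calls split into 306 higher and 488 lower with loess and 286 and 546 with quantile normalization, against 76 and 1460 on the 75th percentile scale. Of the 3 genes past the adjusted p, Orc1 stayed above 0 under every scaling run, while Cdc45 and Prim2 were above 0 when scaled to the spike-in controls (0.26 and 0.23) or left unscaled (0.42 and 0.39).

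**Figure D4:**
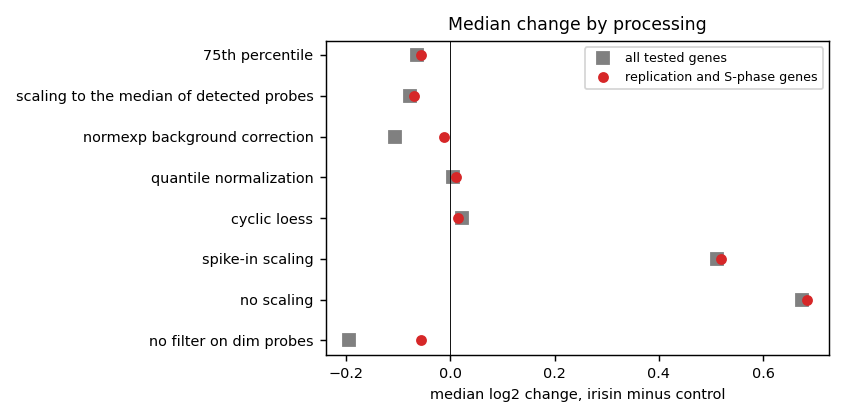
Median log2 change after irisin treatment (horizontal axis) of the 47 replication and S-phase genes (red points) and of all tested genes (grey squares) under 8 ways of processing the same arrays, 1 per line. The pair lie within 0.01 log2 units of each other under every scaling between arrays and part under normexp correction and without the filter on dim probes, where the median of all tested genes is lower.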

How the data were processed

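RNA of AML12 cells, 4 control samples and 4 samples with 0.5 µg/ml irisin for 24 h, was measured on 8 one-color Agilent arrays. The authors labeled the RNA with Cy3 and deposited the Feature Extraction 12.0.3.1 output of each array and a value table, in which intensity is linear, background-subtracted and not normalized between arrays. The labels place each sample in its group. The value table equaled the mean of the scanner values of each probe.

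Spots marked as outliers were left out, spots of a probe were averaged, and the array's 75th percentile was subtracted from the processed signal on the log2 scale. The number of arrays limits the precision, and array depth is given as signal over background: 59.5% to 64.0% of probes were well above background. Accessions of 28663 of 39429 probes (72.7%) gave 21612 symbols through RefSeq (GRCm38.p6). Positions in the files are on another build, and none is printed. limma 3.58.1 in R 4.3.3 (lmFit, eBayes) was run on the 24092 probes whose signal was well above background throughout at least 1 group (4 arrays), with Benjamini-Hochberg adjustment over these probes. A gene was represented by its brightest probe on average and was called at 1.5-fold and adjusted p under 0.05. Single values were also tested by an exact two-sided permutation over 70 assignments. The fit was tested on simulated data. Python 3.11.15 with pandas 2.3.3, scipy 1.17.1 and matplotlib 3.10.9 was used for the rest.

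The genes and lists were chosen with earlier results of these data known. Named with values were genes past a threshold, in each role the gene with the largest change, Pcna, Mcm2, Rrm2, E2f1, Ccnd1 and Ccne1, and of the wider list called genes, Cdkn1a and Cdkn1b; others were named after their values were seen. Alternatives were normexp background correction (offset 50, on the median spot signal in place of the mean, with local backgrounds marked as outliers set to the median of the array), quantile, cyclic loess, median, 8 spike-in probes and no scaling, the value table, other filters, inclusion of marked spots, eBayes with a trend and robust variances, a replicate block, the methods' one-way ANOVA, other thresholds, the mean over probes and each array left out.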

Additional observations from a re-analysis of the deposited data

Results flagged for a closer look

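The values of each gene, and the median over the genes, on the 4 arrays of a group were screened for a single array far from the other 3, by the gap to its nearest neighbor over the range of the group. Of 95 groups of 4 arrays checked, 93 of single genes and 2 of the median over the 47 genes, 4 were past Dixon's 95% critical value, and chance alone gives about 1 in 20. Orc1 on control replicate 4 was at -1.53, with the other controls between -1.32 and -1.28. Without that array the Orc1 log2 change was 0.22 with a limma adjusted p of 0.112. Pcna on control replicate 1 was at 5.70, with the others between 5.59 and 5.60. Pole on irisin replicate 1 was at 3.16, with the others between 3.21 and 3.22, so that the array stands apart from 3 arrays that nearly coincide. E2f1 on irisin replicate 2 was at 0.94, with the others between 0.63 and 0.67, on the array where 37 of the 47 genes lay above the group mean.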

How the results depend on the processing

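No replication or S-phase gene passed both thresholds with the deposited value table, either other filter on dim probes, marked spots kept, the intensity trend with robust eBayes, the replicate block, the methods' ANOVA, the mean over probes, a 2-fold threshold, quantile normalization or cyclic loess. Apart from the 2-fold threshold, these settings called 0.335% to 2.14% of all tested genes higher and 3.41% to 29.0% lower. Normexp correction called 2 of the 47 genes lower (Ccne2 and Cdc7), beside 13.3% of all tested genes, and scaling to the median of detected probes called 1 (Ccne2), beside 10.6%. Spike-in scaling called 12 genes higher and no scaling 35, with median changes of 0.52 and 0.68, and under these scalings 4781 and 9562 of all tested genes were called higher. The adjusted p alone gave 1 higher and 2 lower, beside 2.65% and 17.9% of all tested genes. Leaving out each array gave 0 higher and 0 to 1 lower, beside 0.293% to 1.03% and 9.63% to 11.1% of all tested genes. The median change then ran from -0.11 to -0.03, and its difference from that of all tested genes from -0.02 to 0.03. That difference was 0.14 without a filter on dim probes, which adds dim genes to the background and none to the 47. No scaling shifts all genes alike, and with it 66.8% of all tested genes were called higher. Under that common shift the change of 22 of the 47 genes, which says nothing particular about them, went from below 0 to a call above 0: Cdt1 0.59, Mcm2 0.64, Mcm3 0.68, Mcm7 0.73, Gins1 0.60, Gins2 0.71, Prim1 0.61, Pold1 0.70, Rfc1 0.66, Rfc4 0.67, Rfc5 0.70, Rpa1 0.62, Rpa3 0.73, Rrm1 0.68, Rrm2 0.68, Tyms 0.69, Tk1 0.72, E2f1 0.72, Rb1 0.70, Ccnd1 0.69, Ccnd2 0.65 and Ccne1 0.61.

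In the wider set of 68 genes, 1 was called higher with quantile normalization, beside 2.00% of all tested genes, and 2 with cyclic loess, beside 2.14%. Spike-in scaling called 28 higher, beside 33.4%, and no scaling 56, beside 66.8%. The mean over probes called 1 higher, beside 0.489%, and the adjusted p alone gave 6, beside 2.65%. Those called lower numbered 0 with quantile normalization, cyclic loess, spike-in scaling, no scaling, the methods' ANOVA (Chtf8 no longer called) and a 2-fold threshold, and 3 at the adjusted p alone. With each array left out, 0 to 2 were called higher, beside 0.293% to 1.03% of all tested genes. In those fits 0 to 2 were called lower, beside 9.63% to 11.1%.

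Deviations of same-numbered arrays of both groups had r between -0.35 and 0.17 over probes, and those of differently numbered arrays between -0.24 and 0.36. These correlations do not show whether the numbers pair the samples, which the labels do not say. With the replicate block 0 of the 47 genes were called, 1 gene (Prim2) in place of 3 had an adjusted p under 0.05, and all tested genes gave 1544 calls in place of 1536. The genes past the adjusted p at any fold numbered 6 with normexp correction (38.6% of all tested genes), 5 with the intensity trend (21.4%), 2 with cyclic loess (17.3%), 1 with quantile normalization (16.4%) and 0 to 9 with each array left out (16.9% to 27.4%). Slide and treatment coincide, so no setting separates them. Cdc7 and Ccne2 were dim, and 4 arrays a group leave intervals of Pola1, Prim2, Ccnd3, Ccne2 and Cdk6 reaching past 1.5-fold.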
